A study of Mus musculus with 5 samples.

Results

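The Zfp genes of the mouse are genes named for zinc fingers, most of them coding for proteins that bind DNA through rows of C2H2 zinc fingers. Here they were followed in sorted common lymphoid progenitors (CLPs), marrow cells that give rise to lymphocytes and natural killer cells. Members were all protein-coding genes whose GRCm38 symbol is Zfp, a number and at most 1 letter, and whose mean over the 5 libraries was at least 5 CPM (counts scaled to the same library total). Of 391 genes with such a symbol, 284 were members, among 55487 genes in the table. The other 107 lay below the limit, 23 of them with no count in any library. The members were thus selected on their mean CPM over all libraries, so their levels are a description. The genotypes played no part in the choice except through that mean: in 5 members the SF1 mean reached 5 CPM and the WT mean did not, and in 0 the reverse. The members just above the limit were Zfp628 (5.04 CPM) and Zfp111 (5.08 CPM), and the genes just below it were Zfp28 (4.90 CPM) and Zfp991 (4.68 CPM).

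The comparison set 3 libraries of SF1 mice, labelled SclCre;JAK2-V617F, against 2 libraries of wild-type (WT) mice. JAK2-V617F is the activated kinase of many myeloproliferative neoplasms, and SclCre is a recombinase driven from sequences of the blood stem cell gene Scl. Marrow of both groups was harvested 16 weeks after tamoxifen and CLPs were sorted as lineage-negative, CD127-positive, Flt3-positive cells. Whether the WT mice carried SclCre, the age of the mice, and whether each library came from a mouse of its own are not stated by the labels. The p-values therefore cover only how far these libraries lie apart. The series asks how the mutant kinase bears on lymphoid differentiation.

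In the C2H2 finger, 2 cysteines and 2 histidines hold a zinc ion, and the residues between them read bases of DNA. Many of the proteins also carry a KRAB box, which recruits the corepressor TRIM28 (KAP1) and through it the histone methyltransferase SETDB1. KRAB zinc finger proteins are best known for silencing retroelements, and their genes have multiplied in clusters on a few chromosomes. Zinc finger proteins without a KRAB box are a mixed group of transcription factors, chromatin proteins and RNA-binding proteins, most of them single genes conserved between mammals. By a motif search in the translated coding sequences, 149 members had a KRAB box and 135 had none. A box that departs from the patterns searched is missed, so a gene without a KRAB box is here one in which none was found. The number of C2H2 fingers ran from 0 to 36, with a median of 10. Genes with a KRAB box had a median of 12 fingers and the others a median of 7.

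The coding sequence of 1 finger is shown for 6 members, to show what a finger looks like in genes of differing base composition. Zfp574, Zfp513 and Zfp787 have no KRAB box and were lower, Zfp950 and Zfp120 have one and were higher, and Zfp809, the KRAB protein that silences murine leukaemia virus, was not called. The remaining higher gene, Zfp316, is not shown, and its transcript GC of 58.6% lay among those of the lower genes. Each sequence is the middle finger of its gene, 63 bases from the codon of the first cysteine to that of the last histidine, in a coding exon of the GENCODE M21 annotation (GRCm38). Capitals mark the codons of the 2 cysteines and 2 histidines, and for genes on the minus strand the sequence is that of the coding strand.

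Zfp574, chr7:25081136-25081198 (+): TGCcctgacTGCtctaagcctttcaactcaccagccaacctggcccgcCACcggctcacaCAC
Zfp513, chr5:31199717-31199779 (-): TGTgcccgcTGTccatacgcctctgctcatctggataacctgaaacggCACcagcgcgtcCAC
Zfp787, chr7:6132735-6132797 (-): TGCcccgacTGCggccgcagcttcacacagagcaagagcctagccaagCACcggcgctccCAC
Zfp950, chr19:61119597-61119659 (-): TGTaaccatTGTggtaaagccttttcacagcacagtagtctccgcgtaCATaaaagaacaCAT
Zfp120, chr2:150117513-150117575 (-): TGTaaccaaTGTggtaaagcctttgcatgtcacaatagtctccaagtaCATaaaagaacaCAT
Zfp809, chr9:22239019-22239081 (+): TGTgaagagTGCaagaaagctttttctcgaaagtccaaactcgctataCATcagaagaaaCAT

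The units of Zfp574, Zfp513 and Zfp787 were 61.9%, 60.3% and 68.3% GC. Those of Zfp950, Zfp120 and Zfp809 were 41.3%, 36.5% and 38.1% GC. Zfp950 and Zfp120 share 55 of the 63 bases, although the genes lie on chromosomes 19 and 2. The other pairs among the 6 share between 23 and 35.

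Depth ran from 9350767 to 11290082 counts in the SF1 libraries, and was 20424296 and 8894288 counts in WT replicates 1 and 2. The members held between 1.16% and 1.22% of all counts in every library. Of 10 CLP markers 3 were lower (Tcf3, Rag1 and Kit, by log2 fold changes of -1.25, -0.999 and -0.51), 2 were higher (Ly6d, 0.92, and Il7r, 0.32, adjusted p = 0.0318) and 5 did not pass. The sort genes were present in all libraries: Flt3 had a mean of 1644 ± 53.2 CPM over the SF1 libraries and of 1512 ± 2.13 CPM over the WT libraries (SD, n = 3 and 2), and Il7r, which codes for CD127, of 439 ± 23.1 and 351 ± 28.2 CPM. Markers of other cells moved with the genotype. Of 16 neutrophil and monocyte markers 15 were higher in SF1, and their summed level was between 2466 and 6311 CPM in SF1, highest in SF1 replicate 3, against 1115 and 1428 CPM in WT. Of 10 erythroid markers tested 6 were lower, with a summed level between 361 and 425 CPM in SF1 and of 479 and 379 CPM in WT. Most of this sum was Tfrc, which was not called, at 279, 318 and 321 CPM in SF1 and 270 and 196 CPM in WT. Among the lower ones, Car1 had means of 2.71 and 39.2 CPM over the SF1 and WT libraries. Hba-a2 was at 0 in all 3 SF1 libraries and at only 1.81 and 2.05 CPM in WT. Of 8 mature B and plasma cell markers tested 3 were higher and 1 lower (summed 1042 to 1305 against 738 and 778 CPM). The 3 higher ones differed far more than this sum. Means over the SF1 and WT libraries were 163 and 0.473 CPM for Igkc, 226 and 0.707 CPM for Igha and 61.8 and 1.13 CPM for Jchain. Of 5 T and natural killer markers tested 2 were higher, both by 2-fold or more (summed 226 to 236 against 177 and 186 CPM). The median log2 fold change of the 5 tested was 1.55. Among T cell genes, means over the SF1 and WT libraries were 0 and 0.082 CPM for Cd3e, 0.284 and 0.050 for Cd3d, 0.029 and 0 for Cd3g, 0.565 and 0.189 for Trac and 0.760 and 0.303 for Cd8a. The part of these cells in the differences of the Zfp genes was not tested, and in bulk RNA fewer cells of a type cannot be told apart from less RNA per cell.

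Of the 284 members, 21 were lower in SF1, 3 were higher and 260 did not pass the test (edgeR's quasi-likelihood F test, Benjamini-Hochberg adjustment over all 14423 genes tested, threshold 0.05). All 284 had passed the filter on low counts. The lower members were 7.39% of the members, against 9.74% of all genes tested, and the higher ones 1.06%, against 6.77%. In either direction 8.45% of the members were called, 16.5% of all genes tested and 19.95% of the protein-coding genes at 5 CPM or more. The median log2 fold change (SF1 over WT) of the members was -0.001, with quartiles of -0.21 and 0.19, and the median over all genes tested was 0.02. The difference was under 1.5-fold in 265 of the 284. The groups did not overlap in 62 members that lay lower in SF1 and 51 that lay higher, 39.8% of the members, against 49.0% of all genes tested (24.2% lower and 24.8% higher). The total over the members differed by less than the spread between libraries. Summed over all 284, the CPM (counts divided by the column sum, without TMM scaling) was 11806 ± 363 over the SF1 libraries. Over the WT libraries it was 11922 ± 286 (SD, n = 3 and 2).

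**Figure D1:**
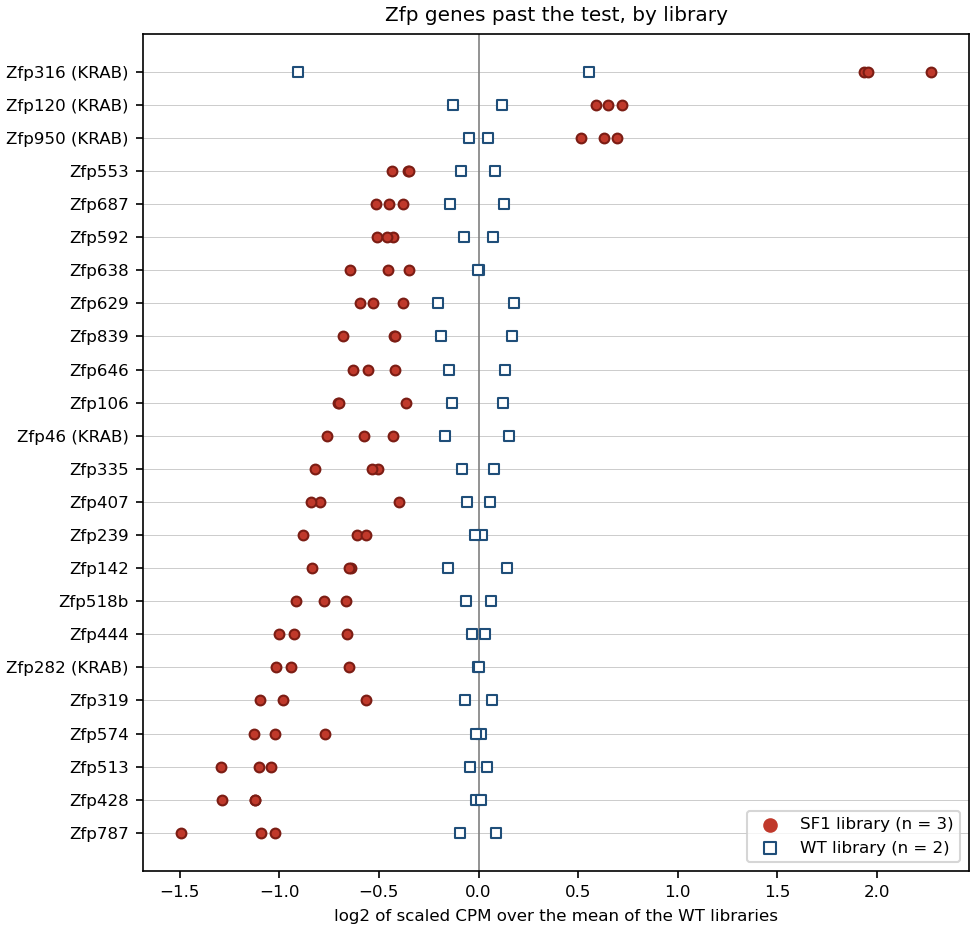
Log2 of the TMM-scaled CPM of each library over the mean of the WT libraries (x axis), for the 24 Zfp genes that passed the test (y axis). Circles are the 3 SF1 libraries and squares the 2 WT libraries; in all 24 genes the groups do not overlap, with 21 genes lower and 3 higher in SF1.

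Most of the lower members had no KRAB box. Of the 135 genes without one, 19 were lower and 0 higher (40 had an unadjusted p under 0.05), with a median log2 fold change of -0.04. The lower share was 14.1%, against 12.7% of the protein-coding genes at 5 CPM or more. Of the 149 genes with a KRAB box, 2 were lower and 3 higher (19 had an unadjusted p under 0.05), with a median of 0.05, which is 1.34% lower and 2.01% higher, against 12.7% and 7.26% of those protein-coding genes. In 142 of these 149 the difference was under 1.5-fold. Genes with a KRAB box had lower levels, with a median of 18.4 CPM against 35.4 CPM, and a larger median standard error (SE) of the log2 fold change, 0.17 against 0.14. Counts are therefore also given at matched levels: between 30 and 100 CPM, 2 of 44 genes with a KRAB box and 9 of 57 without were lower, and between 10 and 30 CPM 0 of 72 and 6 of 43. Of all genes tested 13.0% and 7.51% were lower in these classes. The difference in calls between the classes was not tested, and the split was chosen after values were seen. Zinc finger genes outside the Zfp symbols gave 0 called of 27 with a KRAB box (median 0.13) and, of 107 with 3 or more fingers and no KRAB box, 16 lower and 8 higher (median -0.08). The 8 members with a SCAN domain, a dimerization domain, held 1 lower gene, Zfp444.

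Among transcription factors and other DNA-binding members, the smallest p was that of Zfp574. Its levels were 54.7, 42.7 and 45.9 CPM in SF1 replicates 1, 2 and 3 and 94.1 and 92.4 CPM in WT replicates 1 and 2. The log2 fold change was -0.97 ± 0.12 (SE), with an adjusted p = 0.00132 by edgeR's test, which also gave all adjusted p-values that follow unless another tool is named. All 3 SF1 libraries lay well below both WT libraries. Zfp513, whose human counterpart is linked to retinitis pigmentosa, was at 13.4, 11.7 and 14 CPM in SF1 and 27.9 and 29.6 CPM in WT (log2 fold change -1.14 ± 0.14, adjusted p = 0.00153). Zfp787 was at 11.8, 8.93 and 12.4 CPM against 26.8 and 23.6 CPM (log2 fold change -1.19 ± 0.18, adjusted p = 0.00313). Zfp428 was at 7.02, 7.01 and 6.25 CPM against 15.1 and 15.4 CPM (log2 fold change -1.17 ± 0.18, adjusted p = 0.0034). These 3 genes, at 2.2-fold, 2.29-fold and 2.26-fold lower, were the only members lower by 2-fold or more. Zfp428 has 1 finger, and 17.7% of its exon bases overlap another gene.

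Zfp444, a SCAN and zinc finger factor, was at 43.5, 36.2 and 34.3 CPM in SF1 and 67.2 and 70.2 CPM in WT (log2 fold change -0.86, adjusted p = 0.00275). Zfp282, whose human counterpart HUB1 represses the promoter of the T cell leukaemia virus, has a KRAB box and was at 33.0, 40.4 and 31.3 CPM against 63.2 and 63.4 CPM (log2 fold change -0.86, adjusted p = 0.00313). Zfp319 was at 42.9, 29.6 and 32.1 CPM against 66.4 and 60.5 CPM (log2 fold change -0.87, adjusted p = 0.00683). In all 3 genes the highest SF1 library stayed below the lowest WT library, and the spread over the SF1 libraries was wider than in Zfp513.

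Zfp592 and Zfp687 code for partners in a chromatin complex with the reader protein ZMYND8, and both were lower. Zfp592 was at 117, 110 and 114 CPM in SF1 and 165 and 149 CPM in WT (log2 fold change -0.47, adjusted p = 0.00675). Zfp687 was at 51.6, 49.4 and 54.2 CPM against 77.0 and 63.9 CPM (log2 fold change -0.45, adjusted p = 0.0277). Zfp335, a partner of a nuclear receptor coactivator that is needed for the maturation of T cells, was at 55.3, 44.3 and 54.0 CPM against 82.7 and 74.1 CPM (log2 fold change -0.62, adjusted p = 0.0103). Another gene overlaps 28.3% of the exon bases of Zfp335.

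Further lower members follow with their known roles, which were not tested as groups. Zfp638 (NP220), which silences unintegrated retroviral DNA together with the HUSH complex, was at 138, 129 and 112 CPM in SF1 and 177 and 176 CPM in WT (log2 fold change -0.48, adjusted p = 0.0125). Zfp106, an RNA-binding protein needed in motor neurons and muscle, was the most abundant called member, at 167, 132 and 133 CPM against 234 and 196 CPM (log2 fold change -0.58, adjusted p = 0.0142). Other genes overlap 26.1% of its exon bases. Zfp239 (MOK2), which binds both DNA and RNA, was at 15.8, 13.1 and 16.4 CPM against 24.6 and 23.9 CPM (log2 fold change -0.68, adjusted p = 0.0165). The remaining lower members were Zfp142, Zfp646, Zfp407, Zfp46, Zfp518b, Zfp553, Zfp629 and Zfp839, each between 1.30-fold (Zfp553) and 1.71-fold (Zfp518b) lower, with adjusted p-values from 0.0104 (Zfp142) to 0.0422 (Zfp839). For Zfp142 the exon overlap with other genes was 18.5%.

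The 3 higher members all had a KRAB box. Zfp950 was at 63.9, 69.3 and 72.5 CPM in SF1 and 46.2 and 43.3 CPM in WT. Its log2 fold change was 0.61 ± 0.11 (SE, adjusted p = 0.00587). Zfp120 was at 34.6, 36.1 and 38.0 CPM against 21.1 and 24.9 CPM (log2 fold change 0.66 ± 0.13, adjusted p = 0.00916). In both genes every SF1 library lay above every WT library with a narrow spread. Zfp120 lost its call without WT replicate 1 (log2 fold change 0.54, adjusted p = 0.0869, the highest over all alternatives, with 0.000631 the lowest), and Zfp950 kept it without any 1 library. Zfp316 had the largest fold of all members at the lowest level of the 3, with 7.34, 7.44 and 9.28 CPM in SF1 and 2.82 and 1.02 CPM in WT (3.85-fold higher, log2 fold change 1.94 ± 0.37, adjusted p = 0.00929). Its counts were 69, 85 and 101 in SF1 and 56 and 9 in WT, so the second WT value rests on few reads. Its log2 fold change was 2.95 without WT replicate 1 and 1.5 without WT replicate 2 (adjusted p = 0.00491 and 0.0198, with 1.16e-07 to 0.0344 over all alternatives). Zfp316 is also among the 5 members that reached the 5 CPM limit in the SF1 mean alone, so it was a member only through the group where it was high.

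Zfp950 and Zfp120 were close in sequence as well. When the finger-coding units of Zfp950 were each set against the best-matching unit of the 258 other members with such fingers, Zfp120 had the highest mean identity, 87.9%, against a median of 60.0%. Next were Zfp959 (84.5%), Zfp938 (84.4%) and Zfp958 (83.4%), with log2 fold changes of 0.03, -0.08 and 0.08, none of them called. Of the 50-base windows of the transcripts, 1.34% for Zfp950 and 0.94% for Zfp120 also occur in a transcript of some other gene, and the part of shared reads in their differences was not tested. The 200 bases before the RefSeq transcription start (GRCm38.p6) are shown for both, since the genes lie on different chromosomes and moved together. Capitals mark CCAAT and CCGGAAG, the letters bound by NF-Y and by ETS factors, on either strand.

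Zfp950, chr19:61140841-61141040 (-): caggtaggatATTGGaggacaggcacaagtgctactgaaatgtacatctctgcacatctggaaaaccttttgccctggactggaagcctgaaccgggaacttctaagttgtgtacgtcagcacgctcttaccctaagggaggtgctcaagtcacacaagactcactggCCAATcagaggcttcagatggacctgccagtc
Zfp120, chr2:150136679-150136878 (-): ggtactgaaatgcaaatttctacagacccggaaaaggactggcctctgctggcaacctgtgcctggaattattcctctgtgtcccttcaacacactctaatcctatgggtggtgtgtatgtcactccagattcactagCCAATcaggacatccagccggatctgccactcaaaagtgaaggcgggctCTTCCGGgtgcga

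Both stretches hold CCAAT followed by cag close to the start, and in Zfp120 alone CTTCCGG, the ETS letters on the other strand. Over the RefSeq windows, from 250 bases before to 50 after the start, the local alignment of Zfp950 with Zfp120 had a score of 102, the third highest of 235 members compared, with 191 identical bases in 268 aligned columns. Zfp932 (score 122, log2 fold change 0.48, adjusted p = 0.129) and Zfp958 (score 113) were closer and not called, and the median score was 12. Of 236 members matched to the RefSeq promoter table, CCAAT on either strand was in 48.3%, against 38.8% of 16522 promoters of protein-coding genes, and CCGGAAG in 21.2% against 12.3%. The letters AAGATGG of the YY1 site were in 8.05% against 6.43%. CCGGAAG and AAGATGG can overlap by AAG, and such matches were counted under both. Of the 18 lower members matched, 5 had CCAAT, 2 had CCGGAAG and 0 AAGATGG. The motifs were picked after values were seen, out of those of 6 factors tried, CCAAT because it stood out in the 2 sequences shown, and a match of letters is not a bound site.

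Some uncalled members are given for their known roles; 260 of all 284 members were not called. Zfp521, which holds early progenitors back from B cell differentiation by countering Ebf1, was at 24.4, 14.5 and 19.9 CPM in SF1 and 23.0 and 20.3 CPM in WT (log2 fold change -0.15, adjusted p = 0.659). The SF1 libraries straddled the WT libraries. Zfp318, needed for the alternative processing that makes IgD, was at 9.04, 11.8 and 9.37 CPM against 7.35 and 5.24 CPM, not past the test (log2 fold change 0.66, adjusted p = 0.0911). Zfp36 (tristetraprolin), which speeds the decay of cytokine mRNAs and has no C2H2 finger, was at 113, 97.6 and 143 CPM against 93.9 and 87.9 CPM (log2 fold change 0.37, adjusted p = 0.119). In both genes the groups did not overlap, with SF1 above. Zfp91, a ubiquitin ligase of the NF-kB pathway, was at 29.3, 25.6 and 28.4 CPM against 23.5 and 15.7 CPM (log2 fold change 0.48, adjusted p = 0.101). Zfp91 passed without WT replicate 1 and with all libraries thinned to the smallest total (adjusted p = 0.0327 and 0.0276, in a range of 0.0276 to 0.412 over all alternatives).

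Per transcript length the most abundant members were Zfp706, Zfp422, Zfp207 and Zfp869, at 159, 111, 80.7 and 59.0 CPM per kb of exon. Zfp706, a small factor of the stem cell state, was at 802, 849 and 776 CPM in SF1 and 759 and 783 CPM in WT. Zfp207 (BuGZ), a kinetochore and spindle protein, was at 571, 548 and 495 CPM against 526 and 547 CPM, and Zfp422 at 406, 403 and 389 CPM against 402 and 412 CPM. The groups overlapped in all 3, and the log2 fold changes were 0.07, 0.00 and -0.03, with SEs of 0.07 to 0.08. Zfp410, the activator of Chd4, had a log2 fold change of -0.06 (adjusted p = 0.693). Zfp281, Zfp148, Zfp217 and Zfp292, transcription factors of pluripotent, gut or tumour cells, had log2 fold changes of -0.02, -0.14, 0.29 and -0.23, and none passed. Zfp598, which senses collided ribosomes, and Zfp622, which acts in the maturation of the large ribosomal subunit, had -0.20 and -0.13.

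Of the KRAB genes named for a known target, Zfp282 was lower, as given above, and Zfp809, Zfp445 and Zfp568 did not pass. Zfp809 was at 38.3, 37.3 and 39.2 CPM in SF1 and 33.6 and 34.7 CPM in WT (log2 fold change 0.17, adjusted p = 0.325). Zfp445, which helps to keep genomic imprints, was at 106, 140 and 118 CPM against 161 and 146 CPM (log2 fold change -0.34, adjusted p = 0.0795), and it did pass in 4 of the 13 alternatives: DESeq2, GC and length correction, no filter, and without SF1 replicate 2 (adjusted p from 0.00447 to 0.347 over all alternatives). Zfp568, which silences the placental promoter of Igf2, was at 11, 19.3 and 15.9 CPM against 19.9 and 20.5 CPM (log2 fold change -0.39, adjusted p = 0.258). In Zfp445 and Zfp568 all SF1 libraries lay below both WT libraries, and in Zfp809 above them.

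KRAB proteins act through a shared set of corepressors and chromatin enzymes. Of 38 such partners tested, 12 were lower, 2 (Trim28 and Resf1) higher and 24 did not pass (36.8% called, against 16.5% of all genes tested), with a median log2 fold change of -0.16. The partners were abundant, with a median level of 142 CPM. Of all genes tested at 100 CPM or more, 25.8% were called and 18.2% were lower, against 31.6% of the partners lower. The difference between these shares was not tested. Trim28 itself was at 420, 434 and 409 CPM in SF1 and 361 and 314 CPM in WT, higher by 0.32 on the log2 scale (adjusted p = 0.034). It lost the call without any 1 of the SF1 libraries and without WT replicate 2 (adjusted p from 0.0533 to 0.178, with 0.00379 the lowest over all alternatives). Setdb1 was at 109, 101 and 99.8 CPM against 145 and 116 CPM (log2 fold change -0.35, adjusted p = 0.0552). The largest difference was that of Uhrf1, which brings the DNA methyltransferase Dnmt1 to replicated DNA. It was at 323, 288 and 269 CPM against 597 and 586 CPM (log2 fold change -1.01, adjusted p = 0.000371). Dnmt1 was at 482, 416 and 414 CPM against 758 and 674 CPM (log2 fold change -0.71, adjusted p = 0.00173). Dnmt3b and Dnmt3a fell by 0.64 and 0.40 on the log2 scale, and the histone methyltransferases Ehmt1 and Ehmt2 by 0.45 and 0.43. Mta1 and Mta3, subunits of the NuRD complex, had log2 fold changes of 0.69, not past the test, and -0.47, past it. The HUSH-linked genes Morc2a and Pphln1 were lower. Mphosph8, a HUSH subunit, and Fam208a did not pass (log2 fold changes 0.18 and -0.32, adjusted p = 0.325 and 0.0958). With the replicate numbers as a block 7 of the 38 were lower and 1 higher, when 6.55% and 3.98% of all genes tested were.

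The members lay on 20 chromosomes, 74 of them on chromosome 7, 39 on chromosome 17 and 29 on chromosome 13. A cluster was a run of Zfp genes with starts at most 500 kb apart that held at least 3 members. The 23 clusters held 160 members, of which 8 were lower and 0 higher, and calls fell in 4 of them. The 124 members outside clusters held 13 lower and 3 higher genes. The lower share was 5% inside and 10.5% outside clusters, against 9.74% of all genes tested, and the higher share 0% and 2.42%, against 6.77%. The largest clusters had no call. The chromosome 17 cluster from 21008903 to 23599487 held 21 members, 19 with a KRAB box, and its median log2 fold change was 0.08. Its member with the smallest p was Zfp948, at 7.45, 7.97 and 6.53 CPM in SF1 and 3.42 and 5.35 CPM in WT (log2 fold change 0.77, adjusted p = 0.0841). The chromosome 13 cluster from 67038596 to 67827002 held 18 members, all with a KRAB box, with a median of -0.10. Its Zfp429, at 14.1, 14.3 and 14.4 CPM against 8.91 and 10.9 CPM, did not pass (adjusted p = 0.0679). The other chromosome 17 cluster, from 32765496 to 33631779, held 12 members with a median of 0.06.

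All clusters with a called gene lay on chromosomes 7 and 6. On chromosome 7 from 6131491 to 6396915, Zfp787 and Zfp444 are neighbours and both were lower, 2 of 4 members, with a median log2 fold change of -0.61 for the cluster. From 24081924 to 25227507 on chromosome 7, Zfp428 and Zfp574 were lower and the other 6 members did not pass. From 127233061 to 127885996, Zfp553, Zfp629 and Zfp646 were lower out of 10, and in 8 of the 10 the groups did not overlap, 5 with SF1 below and 3 above, when 24.2% and 24.8% of all genes tested were so separated. Neighbours there did not share a direction: 6 members had a log2 fold change below 0 and 4 above. The cluster on chromosome 6 from 47819266 to 48623227 held Zfp282 as its only called gene among 8. Of the 8 called genes in clusters only Zfp282 had a KRAB box. Median transcript GC of the 4 clusters was 45.03%, 50.6%, 53.3% and 55.8%, and it was 38.2%, 39.1% and 41.0% in the large clusters of chromosomes 17, 13 and 17.

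**Figure D2:**
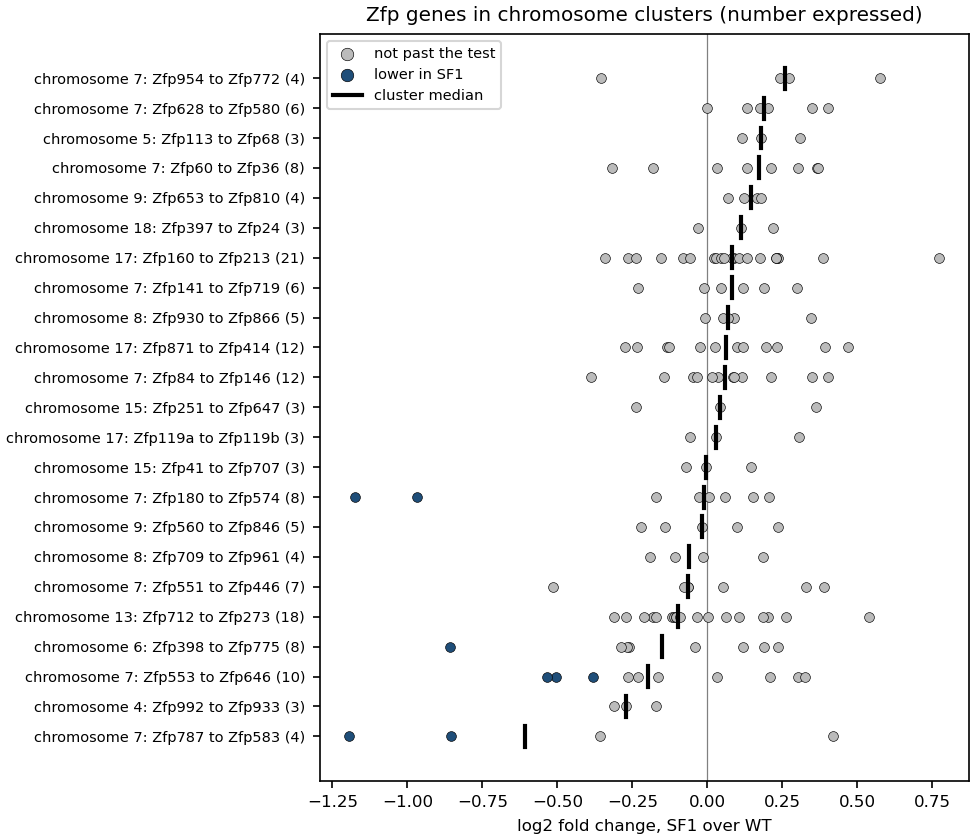
Log2 fold change, SF1 over WT (x axis), of each Zfp gene in the 23 chromosome clusters (y axis, named by the first and last expressed gene, with the number of expressed genes). Dark points passed the test, grey ones did not, and black bars are cluster medians, which run from -0.61 to 0.26. The 8 dark points sit in 4 clusters.

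Transcript GC went with both the class of gene and the calls. The longest transcript of a member had a median GC of 43.7%, against 49.3% over all genes tested. Members with a KRAB box had a median of 41.3% and those without 48.8%. The 21 lower members had a median of 53.7%, from 40.1% (Zfp638) to 64.4% (Zfp428). In the GC classes set by the quartiles of all genes tested (limits 44.5%, 49.3% and 54.1%), the lowest held 150 members with 1 lower and 2 higher, the second 54 with 5 lower, the third 40 with 7 lower and the highest 40 with 8 lower and 1 higher. The called share rose from 2.00% over 9.26% and 17.5% to 22.5%, and over all genes tested it rose from 11.2% over 14.3% and 16.5% to 24.1%. The lowest class holds 109 of the 149 KRAB genes. The differences between these shares were not tested. Across the 284 members Spearman's rho between log2 fold change and GC was -0.12, and over all 14423 genes it was -0.15. Genes share the 5 libraries and are not independent, so this is a description only. Weighted by counts, transcript GC was 48.84% to 49.03% in the SF1 libraries and 49.19% and 49.14% in the WT libraries. Both WT libraries thus lay above every SF1 library, and this difference was not tested.

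**Figure D3:**
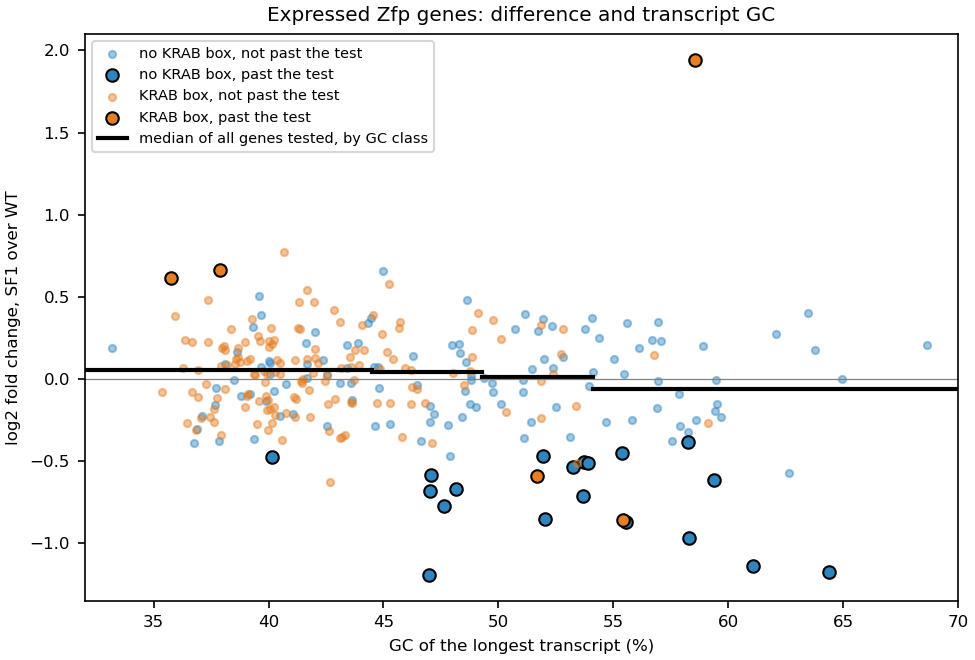
GC of the longest transcript in percent (x axis) against the log2 fold change, SF1 over WT (y axis), for the 284 Zfp genes. Orange points have a KRAB box, blue ones do not, and outlined points passed the test; black lines are medians of all genes tested in the 4 GC classes. Most lower genes lie above 44.5% GC, while Zfp950 and Zfp120, which were higher, lie at 35.8% and 37.9%, and Zfp316, also higher, at 58.6%.

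With a trend in GC and length removed from each library, 24 members were lower and 6 higher, against 10.8% lower and 5.95% higher of all genes. Of the 21 lower members 16 were still called, and so were the 3 higher ones. The 5 that were not were Zfp335, Zfp687, Zfp553, Zfp629 and Zfp839. Zfp513 and Zfp787 had log2 fold changes of -1.05 and -1.31 after this correction, Zfp574 one of -0.71 and Zfp950 one of 0.50. The KRAB genes then held 6 lower and 3 higher and the others 18 lower and 3 higher, and the medians, -0.09 and -0.08, no longer differed in sign. The median over all genes tested was -0.05 in this fit.

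Level also went with the calls. Among members at 5 to 10, 10 to 30, 30 to 100 and at least 100 CPM, 4.55%, 5.22%, 12.9% and 12.5% were called, and of all genes tested in the same classes 10.5%, 15.0%, 20.8% and 25.8%. In every class the members had a smaller called share than all genes tested. Some members share sequence with other genes. In 67 members at least 10% of the 50-base windows of the transcript also occur in another gene, and 4 of these were called, all lower (5.97%, against 9.22% called of the other members and 16.5% of all genes tested). The sources used here do not give how reads matching several places were counted, so the values of such genes are uncertain.

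The number of lower members depended on single libraries. Without WT replicate 1, the deepest library, 7 members were lower, when 3.49% of all genes tested were. Without SF1 replicate 2 there were 13 (5.48% of all genes tested), without SF1 replicate 3 12 (5.87%), without SF1 replicate 1 16 (8.9%) and without WT replicate 2 again 21 (7.86%). With no filter on low counts there were 29 lower and 5 higher members (7.3% and 5.05% of all genes), and with limma voom 22 lower and 6 higher (11% and 7.25%). The higher members numbered 5 without WT replicate 1 (3.11% of all genes) and 5 without SF1 replicate 1 (6.37%). With the replicate numbers as a block, 15 members were lower and 3 higher (6.55% and 3.98% of all genes). All 21 had a negative log2 fold change in each of the 13 alternative fits. Their groups did not overlap, so leaving out 1 library could hardly change the sign. The other fits use the same libraries, so the kept sign is no separate support for the direction. Zfp574, Zfp513, Zfp787, Zfp428, Zfp444, Zfp282 and Zfp319 were lower, and Zfp950 and Zfp316 higher, whichever library was left out.

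**Figure D4:**
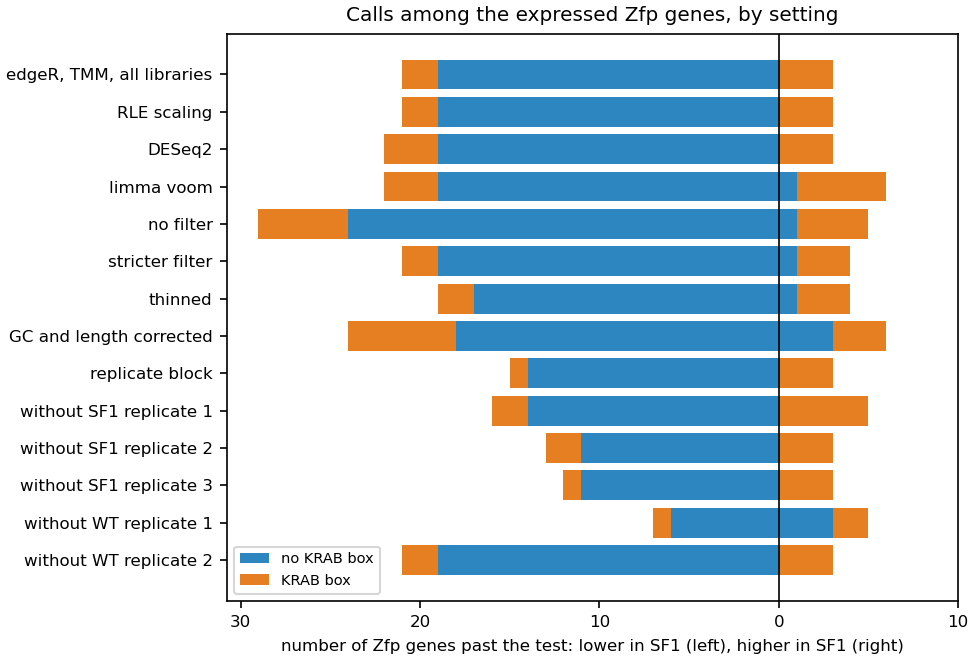
Number of Zfp genes past the test in each fit (x axis, lower in SF1 to the left and higher to the right of the line), for the fit reported here and 13 alternatives (y axis). Blue is for genes without and orange for genes with a KRAB box; the number lower runs from 7 without WT replicate 1 to 29 with no filter on low counts.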

How the data were processed

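Raw counts of the 5 libraries, not normalized, were deposited by the authors as a single table. The submitters' processing notes name the build GRCm38 and the tools featureCounts 2.0.1, HISAT2 2.2.1 and FastQC. Annotation release, strand setting and treatment of multiply matching reads: not given in the sources used here. Per the labels' protocols, cDNA was made with SMART-Seq v2 or v4 and libraries with Nextera XT, which mark neither strand nor molecules, so PCR copies count as reads and overlapping genes cannot be told apart.

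Of 55487 identifiers, 55227 matched GENCODE M21 (GRCm38). Members were chosen on counts divided by the column sum. Genes were tested with edgeR 4.0.16 (R 4.3.3): TMM scaling, filterByExpr (minimum count 10), quasi-likelihood F test, no covariate, Benjamini-Hochberg adjustment over all genes tested. The SE was derived from the F statistic, and levels of named genes and sums over marker lists are TMM-scaled CPM. Values at the 5 CPM limit, level classes, median levels and the total over the members use counts divided by the column sum. A library's count of 1 stands for 0.049 to 0.112 CPM. The members and lists were chosen with earlier results of these data known. The test and its scripts were tested on simulated data.

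Named genes were the 10 higher and 10 lower members with the smallest p among called ones with separate groups, the 4 highest per exon length, the smallest p in each cluster, Trim28, Setdb1 and the 4 corepressors with the smallest p, members with textbook roles, and those next to the 5 CPM limit. Others were named after their values were seen. Shared windows, exon overlap, level classes, finger likeness and promoter motifs were also added after values were seen. Alternatives were DESeq2 1.42.0, limma 3.58.1 voom, RLE scaling, no filter, a minimum count of 50, thinning to 8894288 counts, GC and length correction, the replicate block and leaving out each library.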

Additional observations from a re-analysis of the deposited data

How the results depend on the processing

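No called gene among the 56 named genes changed sign under the 13 alternative fits. In called members the groups did not overlap, so leaving out 1 library could hardly change their sign. Among the uncalled ones, 9 genes changed sign in 20 values, none past the threshold (Zfp119b, Zfp207, Zfp281, Zfp521, Zfp598, Zfp707, Zfp809, Zfp869 and Zfp961). Over these genes and fits, 692 values kept their side of the threshold, 18 lost the call and 18 gained it. The number of lower members was 29 with no filter and between 7 and 21 with 1 library left out. The number of higher members was 3 in the reported fit, 6 after GC and length correction, 6 with limma voom, 5 with no filter and between 3 and 5 with 1 library left out. The median log2 fold change of the members was -0.09 (-0.0867) after GC and length correction. In the same fit it was -0.05 over all genes tested and -0.07 over the protein-coding genes at 5 CPM or more. Lower genes in clusters numbered 5 to 8 with 1 library left out. For the KRAB corepressors and partners, the replicate block gave 7 lower and 1 higher, and leaving out 1 library gave 5 to 11 lower and 0 to 2 higher. The cause of these changes was not tested, apart from the fewer libraries in the fits that leave one out.

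Whether the replicate numbers pair the samples could not be told. Deviations of same-numbered libraries correlated at 0.04 and 0.06. The deviations of the 2 WT libraries mirror each other and SF1 replicate 3 has no partner, so these values cannot exclude pairing. With the replicate block 15 members were lower and 3 higher, and Zfp646 and Trim28 lost their calls (adjusted p = 0.0533 and 0.0577; over all alternatives 1.91e-05 to 0.126 and 0.00379 to 0.178). WT has 2 libraries, so leaving 1 out assumes that the remaining one varies like the SF1 libraries. The lowest count of a member in any library was 9, that of Zfp316 in WT replicate 2.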
